A study of Sus scrofa with 20 samples.

Results

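Skeletal muscle genes were followed in RNA-seq libraries of pig skin. The set of 39 named genes covers the contractile filaments, the Z disc, calcium handling and the energy supply of striated muscle, and a row of the deposited table was taken as a member where its Ensembl pig identifier matched one of those symbols. Of the 39 genes, 29 were found among 19280 rows. The other 10 (MYOZ2, LMOD3, TTN, MYH1, MYH2, MYH4, MYH7, RYR1, LDB3 and MB) had no identifier matched to their symbol and were not analysed here.

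The libraries came from wild-type female Yorkshire pigs, 5 animals aged 4, 5, 6, 7 and 8 months, with no treatment named on the labels. In each pig 4 mm punch biopsies were taken from 4 sites, labelled volar (foot), flank, dorsal (foot) and snout, and stored in RNAlater, which gave 20 libraries with 5 per site. The library numbers fall into 2 ranges, called here the first set (12 libraries, pigs of 4, 7 and 8 months) and the second set (8 libraries, pigs of 5 and 6 months). A punch takes whatever lies under the skin at that place, and no label says which layers each biopsy held.

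Striated muscle contracts when calcium released from the sarcoplasmic reticulum binds troponin on the actin filament, which lets myosin heads pull that filament towards the centre of the sarcomere. Fast and slow fibres build the same machine from different isoforms of the light chains, the troponins and myosin-binding protein C, so paired isoforms report on fibre type. Muscles of the face and snout insert directly into the skin.

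Labels and expression did not match in the second set, which touches every site comparison. Each library was correlated with the first-set mean profile of every site over the 2000 most variable genes, after centring each gene within its set and leaving out libraries of the same pig. These correlations are given as a description, and the libraries share pigs and sets. Of the 8 second-set libraries, none was closest to the first-set site of its own label. In the first set flank at 7 months was closest to dorsal (r = 0.678, and 0.664 with flank), and every other library to its own label. Library 74-39202, labelled volar at 6 months, had r = 0.83 with first-set snout and 0.00231 with first-set volar. Library 74-39206, labelled volar at 5 months, had r = 0.773 with snout and 0.0407 with volar. Library 74-27013, labelled snout at 7 months, had r = 0.413 with the snout of the other first-set pigs and -0.109 with their volar mean. With the muscle lists left out these r with snout were 0.847, 0.775 and 0.554. The text keeps each label's site name and moved no library. The pigs of 7 and 8 months share a harvest date, the others each have their own, and both dates of the second set are later than those of the first.

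The 29 members were high together in those 3 libraries. Their summed level, in counts per 1000000 after TMM scaling (CPM), was 15390 in snout at 7 months, 12120 in volar at 6 months and 7329 in volar at 5 months. In the other 17 libraries the summed level ran from 44.18 to 94.37, with a median of 56.18. As a share of a library's counts the members made up 1.648%, 1.283% and 0.7755% of the 3 libraries and 0.003226% to 0.01061% of the others. The 3 libraries and the other 17 did not overlap. Because these 3 libraries are set apart by the same genes, the contrast with the other 17 is given without a test. In bulk tissue, more muscle cells and more muscle RNA per cell cannot be told apart.

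**Figure D1:**
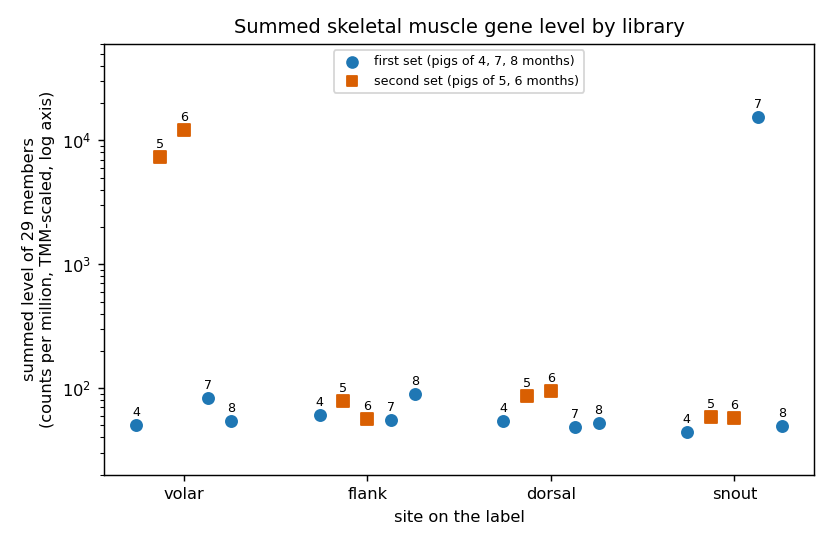
Summed level of the 29 skeletal muscle genes (TMM-scaled CPM, log axis) by site on the label, 1 point per library, with the age of the pig in months beside each point. Circles are the first set and squares the second set; snout at 7 months and volar at 5 and 6 months lie between 7329 and 15390, and the other 17 libraries between 44.18 and 94.37.

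All 29 members exceeded the highest of the other 17 libraries in each of the 3, against 2.55% of the 17769 genes with any count. For 25 members the lowest of the 3 was at least 10 times the highest of the 17, against 0.507% of all genes. The 4 members below that ratio were CACNA1S (9.66 times), CASQ1 (5.57 times), PYGM (3.35 times) and MYBPC2 (2.63 times). The libraries were picked for these genes, so the shares describe the members and test nothing. All 29 had counts in the 3 libraries, and 20 to 27 of them had counts in each of the others. Total counts of the 3 libraries ran from 34809878 to 66906489 and those of the other 17 from 34077861 to 64074039, so depth overlapped between them.

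Genes of the actin filament are described first. ACTA1, the main actin of skeletal muscle, was at 2248 CPM in snout at 7 months, 1220 in volar at 6 months and 752.4 in volar at 5 months, and at 0.2025 to 1.048 in the other 17 libraries, with a median of 0.7044. NEB encodes nebulin, the giant ruler protein of the thin filament, and stood at 1853, 2049 and 1010 CPM, against 0.2784 to 6.252 with a median of 1.133. XIRP2, an actin-binding Xin repeat protein, stood at 2551, 1957 and 894.6 CPM, against 0 to 0.8453 with a median of 0.1984. In each of these genes every one of the 3 libraries lay far above the highest other library. XIRP1, the other Xin repeat gene, was at 66.83, 41.55 and 28.39 CPM and had 12 counts in the other 17 libraries together. LMOD2, a leiomodin that nucleates actin, was at 112.9, 115.6 and 52.2 CPM against a highest value of 0.2232 elsewhere. ACTA1 shares long stretches of sequence with ACTC1 and other actins, and how reads were divided among them is set by the estimated counts.

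Z-disc genes included the members nearest to absence elsewhere. MYOZ1, a calsarcin of fast fibres, was at 133, 115.2 and 55.72 CPM and had no count in any of the other 17 libraries, which makes the lowest of the 3 at least 405-fold higher than a floor of 3 counts. MYOT, the Z-disc protein myotilin, was at 187.1, 137.5 and 106.2 CPM and had 2 counts in the other 17 together. CSRP3, a LIM protein of the Z disc, was at 91.76, 113.8 and 37.83 CPM, also with 2 counts elsewhere. These 3 genes were thus nearly confined to the 3 libraries among the 20. TCAP, the telethonin that caps titin at the Z disc, was at 476.4, 483.9 and 261.3 CPM against at most 0.7405. ACTN2, a sarcomeric alpha-actinin, had a clear level in skin without the other members, from 3.929 to 15.97 CPM, and was at 486.7, 405.5 and 255.3 CPM in the 3. ACTN3, the alpha-actinin of fast fibres, was at 23.93, 17.57 and 6.276 CPM against at most 0.2349.

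Calcium handling and energy genes showed the same division with more signal outside the 3 libraries. ATP2A1, the calcium pump of fast sarcoplasmic reticulum, was at 277.3 CPM in snout at 7 months, 230.2 in volar at 6 months and 100 in volar at 5 months, and between 0.5417 and 2.831 elsewhere (median 0.7405). CASQ1, the calcium store protein calsequestrin, was at 105.5, 109.9 and 67.38 CPM against 0.5036 to 12.09. CACNA1S, the voltage sensor of the transverse tubule, was at 59.19, 41.98 and 19.54 CPM against 0 to 2.023. For all 3 genes the 3 libraries lay above the others, by less for CASQ1. CKM, the muscle creatine kinase, was at 1219, 1050 and 601.2 CPM against 1.012 to 10.33 with a median of 2.429. PGAM2, the muscle phosphoglycerate mutase, was at 104.5, 87.62 and 61.64 CPM and had no count in 12 of the other 17. PYGM, muscle glycogen phosphorylase, was present in every library, at 26.11 to 56.54 CPM in the 17 and 382.6, 342.4 and 189.5 in the 3.

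**Figure D2:**
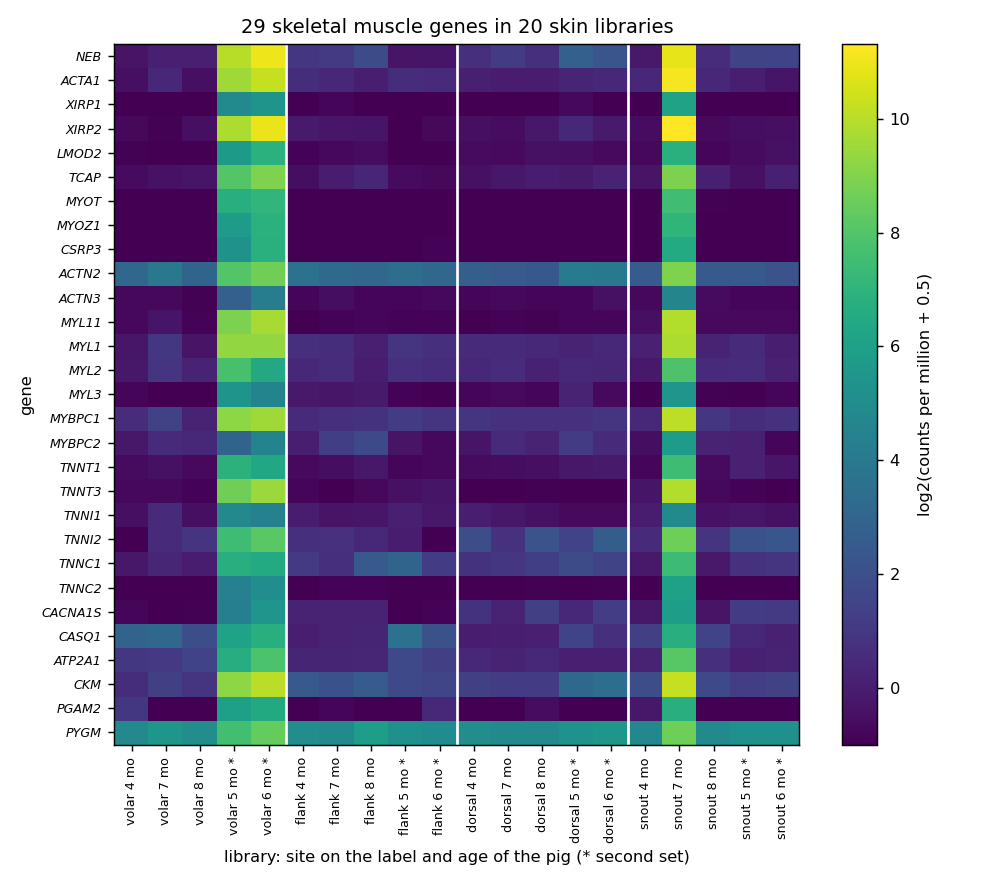
Level of each of the 29 members as log2(CPM + 0.5), genes in rows grouped by role and libraries in columns grouped by site, with an asterisk for the second set. Volar at 5 and 6 months and snout at 7 months form 3 bright columns, and ACTN2, PYGM, CKM and CASQ1 are among the rows with a visible level in some of the other 17 libraries.

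Thick filament and troponin genes come in fast and slow versions, and both versions were present in the 3 libraries. MYL11, the fast regulatory light chain, was at 939 CPM in snout at 7 months, 828.9 in volar at 6 months and 471.4 in volar at 5 months, against 0 to 0.3087 elsewhere (median 0.07714). MYL2, the slow regulatory light chain, was at 232.3, 86.62 and 214.6 CPM, against 0.3796 to 1.312 (median 0.7873). Volar at 5 months was thus lowest of the 3 for the fast chain and not for the slow one. MYL1, the fast essential light chain, was at 880.7, 649.4 and 643.8 CPM, against 0.2911 to 1.518 (median 0.8495). MYL3, the slow essential light chain, was at 43.06, 23.4 and 41.51 CPM, against 0 to 0.6868 (median 0.06696). Here too volar at 6 months was lowest of the 3 for the slow chain.

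The troponins bind tropomyosin (T), inhibit contraction (I) and sense calcium (C). TNNT3, the fast troponin T, was at 938.3, 717.5 and 398.7 CPM in snout at 7 months, volar at 6 months and volar at 5 months, against 0 to 0.3208 (median 0.0478). TNNT1, the slow troponin T, was at 177.4, 79.3 and 119.9 CPM, against 0.06989 to 0.6054 (median 0.1708). The fast form was higher in the volar library of 6 months and the slow form in that of 5 months. TNNI2, the fast troponin I, was at 390.8, 287.7 and 181.5 CPM, against 0 to 5.637 (median 1.196). TNNI1, the slow troponin I, was at 28.95, 20.88 and 27.56 CPM, against 0.1233 to 0.8746 (median 0.3346). Troponin I repeated the order seen for troponin T.

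TNNC2, the fast troponin C, was at 65.37, 32.38 and 20.06 CPM and had 10 counts in the other 17 libraries together. TNNC1, the troponin C of slow and cardiac muscle, was at 172.8, 91.01 and 108.3 CPM, against 0.3543 to 7.374 (median 1.384). Myosin-binding protein C links myosin to the thin filament. MYBPC2, its fast form, was at 54.55, 23.43 and 7.317 CPM, against 0.06696 to 2.777 (median 0.617). MYBPC1, its slow form, was at 1092, 757.3 and 594.5 CPM, against 0.6599 to 2.238 (median 1.196). MYBPC1 was the 1 slow member that was higher in volar at 6 months than in volar at 5 months.

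Fast to slow ratios were taken as counts of the fast gene over counts of the slow gene, with a 95% exact binomial interval that covers counting error only. No transcript lengths were at hand, so a ratio is compared between libraries for 1 pair and not between pairs. MYL11 to MYL2 was 4.043 (3.975 to 4.112) in snout at 7 months, 9.57 (9.227 to 9.928) in volar at 6 months and 2.197 (2.154 to 2.241) in volar at 5 months. MYL1 to MYL3 was 20.45 (19.72 to 21.21), 27.75 (25.92 to 29.73) and 15.51 (14.93 to 16.12) in the same order. TNNT3 to TNNT1 was 5.289 (5.189 to 5.39), 9.048 (8.709 to 9.404) and 3.324 (3.243 to 3.409). In these 3 pairs the order was volar at 5 months, snout at 7 months, volar at 6 months, with intervals that did not overlap.

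TNNI2 to TNNI1 was 13.5 (12.91 to 14.12) in snout at 7 months, 13.78 (12.8 to 14.84) in volar at 6 months and 6.587 (6.272 to 6.921) in volar at 5 months. TNNC2 to TNNC1 was 0.3783 (0.3657 to 0.3913), 0.3558 (0.3328 to 0.3802) and 0.1853 (0.1747 to 0.1964). For both troponins the intervals of snout at 7 months and volar at 6 months overlapped, and volar at 5 months lay below them. MYBPC2 to MYBPC1 was 0.04996 (0.04837 to 0.05159), 0.03094 (0.02888 to 0.03311) and 0.01231 (0.01124 to 0.01345). Snout at 7 months had the highest ratio in this pair. Volar at 5 months had the lowest ratio in each of the 6 pairs. The geometric mean over the 6 pairs was 2.45 times higher in volar at 6 months than at 5 months and 2.01 times higher in snout at 7 months than in volar at 5 months. Between volar at 6 months and snout at 7 months it differed by 1.22 times, in a direction that varied by pair. With 1 library per animal and site there is no replicate of any of these ratios, and the spread between biopsies of 1 pig is unknown.

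**Figure D3:**
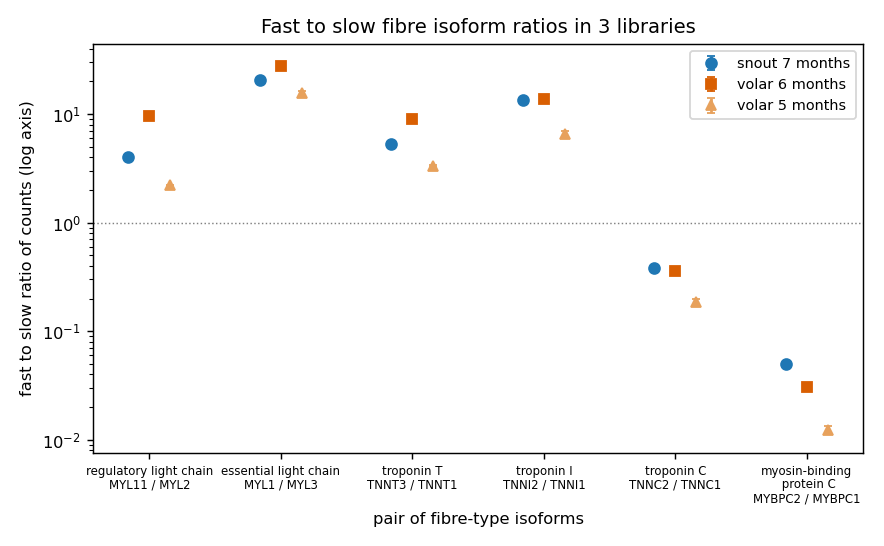
Ratio of fast to slow isoform counts (log axis) for 6 pairs in snout at 7 months, volar at 6 months and volar at 5 months, with 95% exact binomial intervals from the counts, many smaller than the symbol. Volar at 5 months is lowest in each pair, from 0.01231 for MYBPC2 to MYBPC1 up to 15.51 for MYL1 to MYL3.

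In the other 17 libraries few ratios could be formed with at least 20 counts of both genes. No such library had them for the regulatory light chain, troponin T or troponin C pairs, and 3 had them for the essential light chain pair. For TNNI2 to TNNI1, 7 other libraries had a ratio, from 1.088 (0.6645 to 1.787) in volar at 7 months to 11.24 (7.184 to 18.5) in snout at 5 months. For MYBPC2 to MYBPC1, 12 other libraries had a ratio, from 0.2247 (0.131 to 0.3681) in dorsal at 4 months to 2.222 (1.7 to 2.926) in flank at 8 months. All 12 lay above the 0.04996 of snout at 7 months, but the minimum of 20 counts fixed this. MYBPC1 had at most 91 counts in any of the 17 libraries, so a ratio as low as 0.04996 could not be formed. Whether the low levels of MYBPC2 and MYBPC1 have another ratio than the 3 high libraries cannot be read from these values.

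The volar libraries of 5 and 6 months differed by isoform. Of the 29 members 24 were higher at 6 months, with a median ratio of 1.63. The 7 fast isoforms, which are those of the 6 pairs and MYOZ1, had a median ratio of 1.76, from 1.01 for MYL1 to 3.2 for MYBPC2. The 6 slow isoforms had a median of 0.71, from 0.404 for MYL2 to 1.27 for MYBPC1, and 1 of the 6 was above 1. The other 16 members, assigned to neither type here, were all higher at 6 months, from 1.29 times for MYOT to 3.01 times for CSRP3. They include ACTN3 and ATP2A1, which are known from fast fibres and have no slow partner among the members. Snout at 7 months was above volar at 5 months for all 29 members, with a median ratio of 2.02, which was 2.35 over the fast isoforms and 1.28 over the slow ones. These are ratios of single libraries from different pigs, and age, animal and the place of the punch cannot be told apart.

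**Figure D4:**
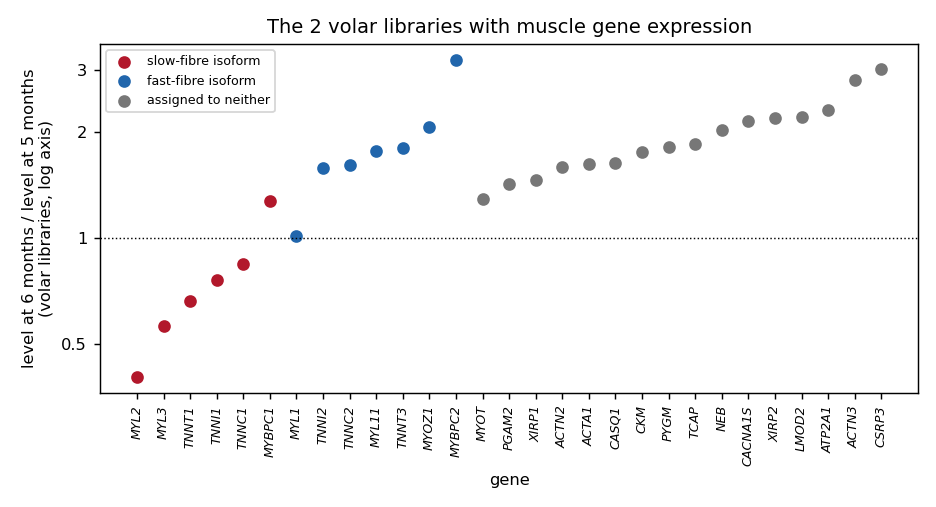
Level of each member in volar at 6 months divided by its level in volar at 5 months (log axis), 1 point per gene, coloured as slow isoform, fast isoform or member assigned to neither. Of the 6 slow isoforms 5 lie below 1, from MYL2 at 0.404, while the 7 fast isoforms and 16 other members lie between 1.01 and 3.2.

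The site comparisons were tested with edgeR's quasi-likelihood test with Benjamini-Hochberg adjustment over all genes tested, at an adjusted p under 0.05. Within the second set all 29 members passed in volar against snout, flank and dorsal alike, and all 29 were higher in volar. Of all genes tested, 6.49% were higher in volar than in snout, 20.9% than in flank and 7.61% than in dorsal. The members' median log2 fold change was 9.25 against snout, 9.99 against flank and 8.22 against dorsal, beside medians of 0.01, 0.07 and -0.02 over all genes tested. These 3 comparisons share the same 2 volar libraries, which were picked because these genes are high in them. The counts therefore describe that choice and support nothing, and p-values of single members are not given. Several members entered the test through the volar libraries alone. The test has 2 pigs per site, and nothing in it separates the label volar from the pigs and the snout-like profile of those libraries.

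Against second-set snout, ACTA1 averaged 986 CPM in volar and 0.411 in snout, a log2 fold change of 11.19. NEB averaged 1530 against 2.34 CPM, a log2 fold change of 9.36. MYBPC1, the slow myosin-binding protein C, averaged 676 against 1.12 CPM, a log2 fold change of 9.25. The smallest changes among the 29 were those of PYGM and CACNA1S. PYGM averaged 266 against 35.6 CPM (2.90 on the log2 scale), and CACNA1S averaged 30.8 against 1.69 CPM (4.19). MYBPC2 averaged 15.4 against 0.328 CPM (5.47). MYOT, MYOZ1, CSRP3, PGAM2 and TNNC2 had no count in second-set snout. With 3 counts over that group as a floor, they were at least 4370-fold, 3060-fold, 2720-fold, 2680-fold and 940-fold higher in volar. MYL3, TNNT3 and XIRP1 had 3, 3 and 1 counts there, against 3654, 53265 and 3441 counts in volar.

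In the first set the members were high in the snout library of 7 months alone. The summed level was 44.18 CPM in snout at 4 months and 49.6 in snout at 8 months. ACTA1 was at 0.8111 CPM in snout at 4 months and 0.8226 in snout at 8 months, beside 2248 at 7 months. Of the 21 members tested, 9 were higher in snout than in volar, where 5.85% of all genes were. The other counts were 10 against flank (7.77% of all genes) and 4 against dorsal (5% of all genes). MYL11 and ACTA1 passed in all 3, with log2 fold changes of 11.09 ± 3.06 and 10.82 ± 2.86 (SE) against volar. These calls rest on 1 library, which was picked for these genes, so they too describe that choice. Without the snout library of 7 months, 1 member was higher and 1 lower against volar, 1 and 2 against flank, and 1 and 0 against dorsal. Without the whole pig of 4, 7 or 8 months no member was higher in snout. With the pig as a block 1 member passed in each, limma-voom called 0, and DESeq2 gave no adjusted p for any of the 21.

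Over all 5 pigs no member passed in any of the 6 site comparisons. The test was made on 23 members, and the share of all genes called was also 0% in volar against flank, dorsal and snout, in snout against flank and dorsal, and in dorsal against flank. At an unadjusted p under 0.05 there were 21 members in volar against flank, 21 in volar against dorsal, 20 in snout against flank and 21 in snout against dorsal. Of the 15275 genes tested, 1805, 3877, 1782 and 702 were under it in those 4. In volar against snout and dorsal against flank there were 0 members, beside 992 and 1791 genes. In the 4 comparisons with members under it DESeq2 called 15, 19, 14 and 12 members, all higher in volar or snout, and limma-voom called 0. The DESeq2 counts are given without a share of all genes and are not read as a result about the members. Within pooled volar and pooled snout the members were high in some pigs and low in others. Volar held 2 of the 3 libraries and snout 1, and flank and dorsal held none. In the interaction of site and set, 27 of 29 members had a greater volar minus snout difference in the second set, where 7% of all genes did, and MYOT and MYOZ1 did not pass. The 3 picked libraries make up this interaction, so the count restates their choice. limma-voom called 2, and without the pig of 5 months or that of 6 months edgeR called 0.

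At the low levels of the remaining libraries the shares of members called between sites were near or below those of all genes tested, which is no result about the members as a group. With the snout library of 7 months left out, the first set had 7 of 21 members called between volar and flank, where 32.5% of all genes were. CASQ1 was at 7.163, 8.437 and 3.357 CPM in volar of the pigs of 4, 7 and 8 months and at 0.5095, 0.6149 and 0.7251 in flank, a log2 fold change of 3.35 ± 0.36 (adjusted p = 0.00019). ATP2A1 averaged 1.76 CPM in volar and 0.718 in flank (1.30 ± 0.32, adjusted p = 0.0129). The volar and flank libraries did not overlap for these 2 genes, nor for the 5 called members that were lower in volar. The share of all genes without overlap is not given, so this sets none of them apart. Lower in volar were CKM (1.47 against 4.74 CPM, -1.69 ± 0.29), NEB (0.463 against 2.06 CPM, -2.15 ± 0.48), TNNC1 (0.544 against 2.57 CPM, -2.24 ± 0.56) and CACNA1S (0.0318 against 0.647 CPM, -4.28 ± 0.75). MYL3 had 3 counts in volar and 66 in flank. Against dorsal 5 members were called, where 23.5% of all genes were: CASQ1, ATP2A1 and ACTN2 were higher in volar, and NEB and CACNA1S lower. CASQ1 and CACNA1S remained called against flank with each pig left out in turn, whereas ATP2A1 was called in no fit that left out 1 of the 3 pigs (adjusted p up to 0.134) and CKM, NEB, TNNC1 and MYL3 lost the call without the pig of 8 months. In that fit 2 members were called against flank, and without any 1 of the 3 pigs 2 were called against dorsal.

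The low levels of the second set were compared next. Between its dorsal and flank libraries 11 of 29 members were called, where 46.7% of all genes were, a larger share. CASQ1 was at 12.09 and 3.62 CPM in flank of the pigs of 5 and 6 months and at 2.307 and 1.148 in dorsal, a call lost by limma-voom and without flank of 5 months or dorsal of 6 months (adjusted p up to 0.159). NEB averaged 5.25 CPM in dorsal and 0.3 in flank (4.14 ± 0.50, adjusted p = 0.000779), and CKM 9.4 against 2.61 CPM (1.85 ± 0.29, adjusted p = 0.0023). By the correlations described above, second-set flank was closest to first-set volar (r = 0.87 and 0.873) and second-set dorsal to first-set flank (0.807 and 0.841). Without the flank library of 5 months 5 members were called between dorsal and flank and without the dorsal library of 5 months 6, and limma-voom called 3. The comparisons of the 2 sets share no library. CASQ1, ATP2A1, NEB, CACNA1S and CKM were called in both, which is 71.4% of the 7 members of the first set and 45.5% of the 11 of the second. Over all genes these shares were 79.6% and 56.1%. In the second set limma-voom also lost the calls of ATP2A1 and CACNA1S. With libraries matched by profile in place of label, each of the 5 members called in both differed in the same direction in both sets. So did 99.8% of all genes called in both. The libraries were matched on their own expression, so a shared direction was largely fixed by the match and supports nothing. Between snout and flank of the second set 10 members were called (42.9% of all genes), and all 5 called in first-set volar against dorsal were among them, beside 82.6% over all genes, while 5 were called without the flank library of 5 months, 6 without the snout library of 6 months and 3 by limma-voom. Between snout and dorsal no member was called by edgeR (0.0393% of all genes). At an unadjusted p under 0.05 there were 6 of 29 members, beside 1223 of 15280 genes. DESeq2 called 2 members, the fit with the pig as block 1 and limma-voom 0.

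**Figure D5:**
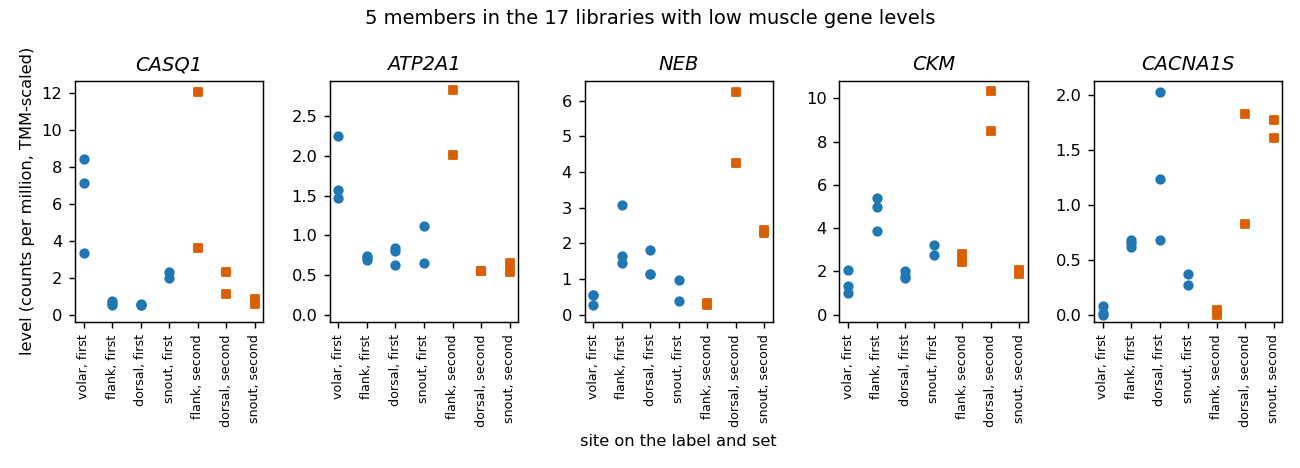
Levels (TMM-scaled CPM, linear axes that differ by panel) of CASQ1, ATP2A1, NEB, CKM and CACNA1S in the 17 libraries other than snout at 7 months and volar at 5 and 6 months, by site on the label and set, 1 point per library. CASQ1 and ATP2A1 are high in first-set volar and second-set flank, where NEB and CACNA1S are low.

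Other genes of muscle were read from lists. Of the 17769 genes with any count, 2.55% lay above all 17 other libraries in each of the 3. Those 3 were picked for muscle genes, so the counts from these lists describe that choice and test nothing. Of 18 matched genes of the M band, costamere and cytoskeleton 13 lay above all 17 other libraries in each of the 3, among them DES, the muscle intermediate filament desmin (640.4, 455.6 and 296.8 CPM against at most 147.7), and FLNC, muscle filamin (403.3, 209.4 and 171.2 against at most 107.4). MYOM2 and DMD did not, with highest values elsewhere of 137.4 and 94.75 CPM. Of 12 genes of excitation and calcium 10 did, including TRDN, which anchors calsequestrin (44.01, 50.96 and 27.74 CPM against at most 0.1566), and SLN, the small inhibitor of the calcium pump (71.81, 56.11 and 27.85 against at most 5.242). Of 19 genes of muscle energy metabolism 9 did. PFKM, the muscle phosphofructokinase, was at 173.9, 146.6 and 126.7 CPM against at most 76.85, whereas LDHA was at 261.1, 246.5 and 194.3 CPM within a range of 159.3 to 625.2.

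Most regulators of muscle identity followed the members at low levels, and some were also present in snout libraries where the members were low. MYF6, a myogenic transcription factor kept in mature fibres, was at 9.648, 11.91 and 6.9 CPM and at most 0.05062 elsewhere. MYOD1 was at 3.016, 2.739 and 1.145 CPM with 1 count in the other 17 libraries together, and MYOG at 5.25, 4.556 and 2.781 CPM against at most 0.1801. PAX7, the marker of muscle stem cells, was at 1.033, 0.7593 and 0.9964 CPM against at most 0.4453. Of 10 matched myogenic regulators 8 were above the other 17 libraries in each of the 3, beside 2.55% of all genes. This count too describes the choice of the 3 libraries. PAX3 and SIX4 were not above the others, with highest values elsewhere of 5.343 CPM in snout at 4 months and 5.53 in dorsal at 5 months. PAX3 was also at 4.164 CPM in snout at 8 months, beside 4.552 to 7.302 in the 3. Among regulators of head muscle, ISL1 was at 6.186, 6.725 and 5.636 CPM against at most 5.502, and MSC at 6.632, 5.614 and 7.332 against at most 3.817. TBX1, LHX2 and TCF21 lay within the range of the other libraries. ISL1 and MSC thus exceeded the highest other library by a small margin, unlike the members. For ISL1 that library was snout at 4 months, followed by snout at 8 months at 1.063 CPM, and for MSC it was snout at 6 months.

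Of 5 matched developmental genes 3 lay above the other 17 libraries in each of the 3, beside 2.55% of all genes. MYH8, the perinatal myosin heavy chain, was at 61.98, 89.46 and 64.93 CPM against at most 1.029, and MYH3, the embryonic one, at 66.62, 31.62 and 54.85 against at most 1.737. ACTC1, the actin of heart and of developing muscle, was at 49.4, 56.3 and 89.5 CPM against at most 0.3844. MYH6, a cardiac myosin heavy chain also found in some head muscles, was at 788.2, 345.1 and 663.7 CPM against at most 3.434. These myosins have near-identical relatives among the genes that had no identifier matched (MYH1, MYH2, MYH4 and MYH7), so their values are uncertain. The remaining developmental genes did not lie above the others. MYH15 was at 0.8657, 3.444 and 2.305 CPM against at most 1.112, and MYL4 had no count in any library. Of 7 matched cardiac genes 1 more lay above the other 17 libraries, the transcription factor NKX2-5, named after its values were seen, at 0.768, 0.4339 and 0.5651 CPM with no count elsewhere. RYR2, MYBPC3 and TNNT2 did not.

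Markers of other tissues that a punch could hold were read in the same way. None of 10 smooth muscle genes lay above the other 17 libraries, and their summed level was 474.8 to 558.5 CPM in the 3 and 312.6 to 2393 in the others. Snout at 4 and 8 months, where the members summed to 44.18 and 49.6 CPM, had smooth muscle sums of 312.6 and 320.6. Of 15280 genes tested in the second set, volar had 991 higher and 560 lower than snout. The counts of all genes were 3198 and 2686 against flank, and 1163 and 818 against dorsal. In second-set volar against snout 0 smooth muscle genes were higher and 7 of 10 lower, with MYH11 at -2.09 ± 0.30 and ACTA2 at -1.53 ± 0.35 on the log2 scale (adjusted p = 0.00796 and 0.0388). Against dorsal the counts were also 0 and 7, whereas against flank 7 were higher and 1 lower, with MYH11 at 2.23 ± 0.31 and ACTA2 at 1.63 ± 0.36 (adjusted p = 0.00219 and 0.0117). None of 7 adipocyte genes lay above the others (79.46 to 224.6 CPM summed, against 31.39 to 2609). In second-set volar 4 of them were higher than in flank, 6 lower than in dorsal and 1 lower than in snout. Of 6 tendon genes SCX and FMOD did (summed level 1005 to 1575 CPM, against 40.52 to 3039), and in second-set volar 4 of 6 were higher than in snout, 4 than in flank and 6 than in dorsal. Tendon sums were also high in libraries with low members: 1424 CPM in snout at 4 months, 890.5 in snout at 8 months and 3039 in volar at 4 months. The 6 matched Schwann cell and nerve genes had summed levels of 214 to 270.9 CPM, against 23.56 to 178.3 in the others. Of 5 neuromuscular junction genes CHRNA1 and COLQ did. The part of these tissues in the members' levels was not tested.

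Genes outside the lists that tracked the members were found by Pearson r with the members' mean log2 CPM over the 20 libraries, a description in which the 3 high libraries set nearly all of the variation. The 10 highest were MYO18B, RPL3L, BBS5, GADL1, STYXL2, SYNPO2L, CAVIN4, TMOD4, PROB1 and IP6K3, with r from 0.984 to 0.997. MYO18B, an unconventional myosin of striated muscle, was at 78.19, 45.97 and 27.51 CPM in snout at 7 months, volar at 6 months and volar at 5 months, against at most 0.3145 elsewhere. RPL3L, a ribosomal protein of striated muscle, was at 22.66, 13.69 and 9.934 CPM against at most 0.18. BBS5, a gene of the ciliary BBSome, was at 668.3, 590.8 and 368.9 CPM against a median of 7.745 and at most 9.343. In the RefSeq annotation of Sscrofa11.1 the neighbour of BBS5 is KLHL41, a muscle gene with no identifier matched here, so which of them these counts belong to is uncertain.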

How the data were processed

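The authors deposited 1 table of Salmon estimated counts with Ensembl identifiers, the tool being named in the submitters' processing notes. Salmon's version, the annotation and the build are not given in the sources used. RNA came from a fibrous tissue kit and went into stranded mRNA libraries, per the labels' protocols. Of the values 42.2% were not whole, and all were rounded. Symbols came from the supplied gene name tables (14821 of 19280 rows matched). The members and lists were chosen with earlier results of these data known.

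Levels are counts per 1000000 (CPM) with TMM factors (0.5689 to 1.291) from edgeR 4.0.16 in R 4.3.3. Tests were quasi-likelihood F tests on site means after filterByExpr (count minimum 10, total minimum 15), over all 20 libraries, within each set, and for the site by set interaction. The fit of the first set without its 7-month snout library, and second-set comparisons without volar, were chosen after seeing the data. Genes were named by rule: all members, the 4 most abundant genes of each other list, all myogenic and head muscle regulators, and the 10 genes most like the members. Some genes that this rule names are not reported here. Log2 levels had 0.5 CPM added.

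Sites of 1 pig pair the libraries. Libraries of 1 pig deviated together from the mean of their sites: the correlations ran from -0.0069 to 0.43 (median 0.22, 18 pairs) in the first set and from 0.11 to 0.44 (median 0.31, 12 pairs, of which 6 are distinct since the 2 pigs mirror each other) in the second. Alternatives were DESeq2 1.42.0, limma-voom (limma 3.58.1), median-of-ratios and upper-quartile scaling, TMM without muscle genes, no count filter, the pig as block, and each pig or library left out. The tests were checked on simulated counts. A library's floor of 3 counts was 0.03942 to 0.1375 CPM. Reads carry no molecular identifiers, so floors and intervals cover counting error only. Each site of a pig is 1 biopsy.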

Additional observations from a re-analysis of the deposited data

Results flagged for a closer look

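The libraries high in these genes were picked for them, so the values of snout and of the sets below restate that choice and support nothing. Among the 5 snout libraries the one of the pig of 7 months had the summed level of the members farthest from the rest, with a gap to its nearest neighbour of 0.952 of the range of the log2 values, where the limit for 5 samples is 0.71. The same held for 29 of 29 members in snout. A library lay beyond that limit for 4 members in flank (MYOT, XIRP1, PGAM2 and ACTN3) and 4 in dorsal (XIRP1, MYL3, PGAM2 and ACTN3), and for none in volar, where 2 libraries were high. The flagged values in flank and dorsal were low, from 0.01543 CPM (1 count) for MYOT in flank at 8 months to 0.7791 CPM for PGAM2 in flank at 6 months. Where all other libraries of a site had no count, as for MYOT in flank, any single count passes the limit. Chance passes the limit in about 1 of 20 groups, a rate that does not hold for such values.

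The volar minus snout difference was unequal between the sets for 27 of 29 members by the interaction test of edgeR. limma-voom called 2, and edgeR called 0 without the pig of 5 months or that of 6 months.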

How the results depend on the processing

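In the second set the members called against flank, dorsal and snout were 27 to 29 under all alternatives, all higher in volar. Over all libraries DESeq2 called 15 members in volar against flank, 19 in volar against dorsal, 14 in snout against flank and 12 in snout against dorsal, and every other alternative, the replicate block included, called 0. The first-set calls for snout did not last: against volar, flank and dorsal limma-voom called 0, 0 and 0, the fit with no count filter 3, 3 and 1, and the replicate block 1, 1 and 1. With a pig or the 7-month snout library left out they were 0 to 2, 0 to 3 and 0 to 1. The interaction called 2 by limma-voom and 0 to 27 with a pig left out (0 without the pig of 5 or of 6 months). DESeq2 gave no adjusted p for members in those 4 results. In the second set snout minus flank had 3 by limma-voom and 5 to 10 with a library left out, dorsal minus flank 3 and 5 to 13, and snout minus dorsal 2 by DESeq2 and 1 with the replicate block. Without the 7-month snout library, first-set volar minus flank had 2 to 5 with a pig left out, and volar minus dorsal 2 in each case and 3 by limma-voom. The causes were not tested.

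The paired fit with the replicate block moved no other count by over 1.5 times. No member changed sign under these alternatives among those followed singly in second-set volar minus snout and dorsal minus flank and in first-set volar minus flank without the 7-month snout library. Upper-quartile scaling moved the median of all genes by 0.15 in second-set snout minus flank, 0.12 in dorsal minus flank and -0.11 in first-set volar minus dorsal without the 7-month snout library. The mean summed level in second-set volar, 9724 ± 3390 CPM (SD, n = 2), was 8297 to 10290 under other scalings or without its most abundant member. For the 7-month snout library r with snout was 0.554 without the muscle lists and 0.694 also without the 200 genes most like the members, and for the 6-month volar library it was 0.871 in the latter. Ratios per coding length were not run. A library left out leaves 1 sample in an arm, assumed to vary like the others. Ratios with under 20 counts are limited by depth.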
